A study of Homo sapiens with 3 samples.

Results

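ATF4 and other human mRNAs that are known to be governed by upstream open reading frames (uORFs) were followed in ribosome profiling libraries of HEK293T cells. The members were picked by gene name and are ATF4, ATF5, DDIT3, PPP1R15A, PPP1R15B, IFRD1, SLC35A4 and MIEF1. Of these 8 genes, 6 were listed in at least 1 library, out of 9706 genes listed in all, and 4 of them (ATF4, DDIT3, PPP1R15A and MIEF1) were listed in all 3 libraries. PPP1R15B and IFRD1 are not analysed here, as no library listed them.

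HEK293T is a line of human embryonic kidney cells that carries a viral large T antigen. Untreated A and Untreated B came from cells without drug, and G418 A from cells given 500 µg/mL of the aminoglycoside G418 for 24 hours, so the treated group had 1 library. In this assay the stretches of mRNA shielded by ribosomes are sequenced (ribosome-protected fragments, RPFs), and each RPF was counted in the 5′UTR, the coding sequence (CDS) or the 3′UTR of a single transcript per gene. The libraries held 5857230 (Untreated A), 9477972 (Untreated B) and 7216039 (G418 A) reads, and values for all 3 are given in this order. VIM, KRT8, KRT18 and LHX1, markers of this line, were listed in all 3 libraries, while PAX2 was listed only in Untreated B, at 1.28 RPKM. PTPRC, ALB and PECAM1, markers of leukocytes, hepatocytes and endothelium, were listed in none, and COL1A1, a fibroblast marker, lay between 7.98 and 10.7 RPKM. All these libraries measure ribosomes only, so more mRNA and more ribosomes on each mRNA cannot be told apart.

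A ribosome that scans an mRNA from its 5′ end meets a uORF before the CDS. When it translates the uORF, it often fails to reach the CDS start, and the CDS is then made at a low level. Under stress, kinases phosphorylate the initiation factor eIF2, initiation at most start codons slows, and on several mRNAs of this kind a larger share of ribosomes passes the inhibitory uORF and translates the CDS. ATF4 and ATF5 are transcription factors of this integrated stress response, DDIT3 encodes the transcription factor CHOP that ATF4 induces, and PPP1R15A encodes GADD34, which brings protein phosphatase 1 to eIF2 and ends the response. SLC35A4, a gene of the nucleotide sugar transporter family, and MIEF1, which recruits the mitochondrial fission machinery, carry uORFs that are themselves translated into small proteins.

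The uORFs of the members were read from GENCODE 44 transcripts on hg38, the build used for the libraries. ATF4 lies on the plus strand of chromosome 22 (chr22:39519695-39522683) and has a 5′UTR of 773 nt. Its short uORF of 3 codons stands 196 nt before the CDS, in exon 2 (chr22:39520648-39520659). A longer uORF of 59 codons starts 97 nt before the CDS in the same exon. It spans an intron and runs 83 nt into the CDS in another frame (chr22:39520747-39521528). ATF5, on the plus strand of chromosome 19 (chr19:49928702-49933298), has the same pair, with 3 codons in exon 2 (chr19:49929274-49929285) and 59 codons that overlap the CDS by 56 nt (chr19:49929396-49930906). The short uORFs of this pair are shown because they are complete within a few bases, with their start and stop codons in capitals.
ATF4 short uORF: ATGgcgtatTAG
ATF5 short uORF: ATGgctctgTAG
The bases around the start codon of a longer uORF of each listed member follow, with 6 bases before and 4 after the ATG, which is in capitals. RPFs were counted over the whole 5′UTR and were not assigned to single uORFs. Efficient start codons are known to have a purine at the third base before the ATG and a G just after it.
ATF4 59-codon uORF: taagccATGgcgc
ATF5 59-codon uORF: gcagccATGgagt
DDIT3 34-codon uORF: cgtatcATGttaa
PPP1R15A 26-codon uORF: ggtgagATGaacg
SLC35A4 103-codon uORF: gggaagATGgcgg
MIEF1 70-codon uORF: tcccccATGgccc
In these windows ATF4, ATF5 and SLC35A4 have both the purine and the G, DDIT3 and PPP1R15A have only the purine, and MIEF1 has only the G. The windows show a single uORF of each gene, and other upstream frames differ. A 73-codon frame of DDIT3 and a 22-codon frame of PPP1R15A have neither base, while the 3-codon uORFs of ATF4 and ATF5 have both. How common these bases are over all upstream frames was not counted.

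The DDIT3 uORF of 34 codons begins in exon 1 of this minus-strand gene (chr12:57516593-57520514) and ends before the CDS, and a second ATG inside it opens 31 codons in the same frame. A further uORF of 73 codons starts 32 nt before the DDIT3 CDS and overlaps it by 190 nt. PPP1R15A, on the plus strand (chr19:48872421-48876058), has uORFs of 22 and 26 codons, both in exon 1, and neither reaches the CDS. The 70-codon uORF of MIEF1 lies in exon 2 (chr22:39504231-39504443). The SLC35A4 uORF of 103 codons starts in exon 1, 719 nt before the CDS. Where a uORF overlaps a CDS, RPFs on the overlap were counted as CDS, which concerns 65 of the 1023 counted CDS nt of ATF4, 38 of 816 in ATF5 and 172 of 477 in DDIT3. Among 7623 transcripts whose lengths matched the reference, 43.0% had an ATG in the 5′UTR, 14.97% had an upstream frame overlapping the CDS, and the median 5′UTR was 142 nt long.

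**Figure D1:**
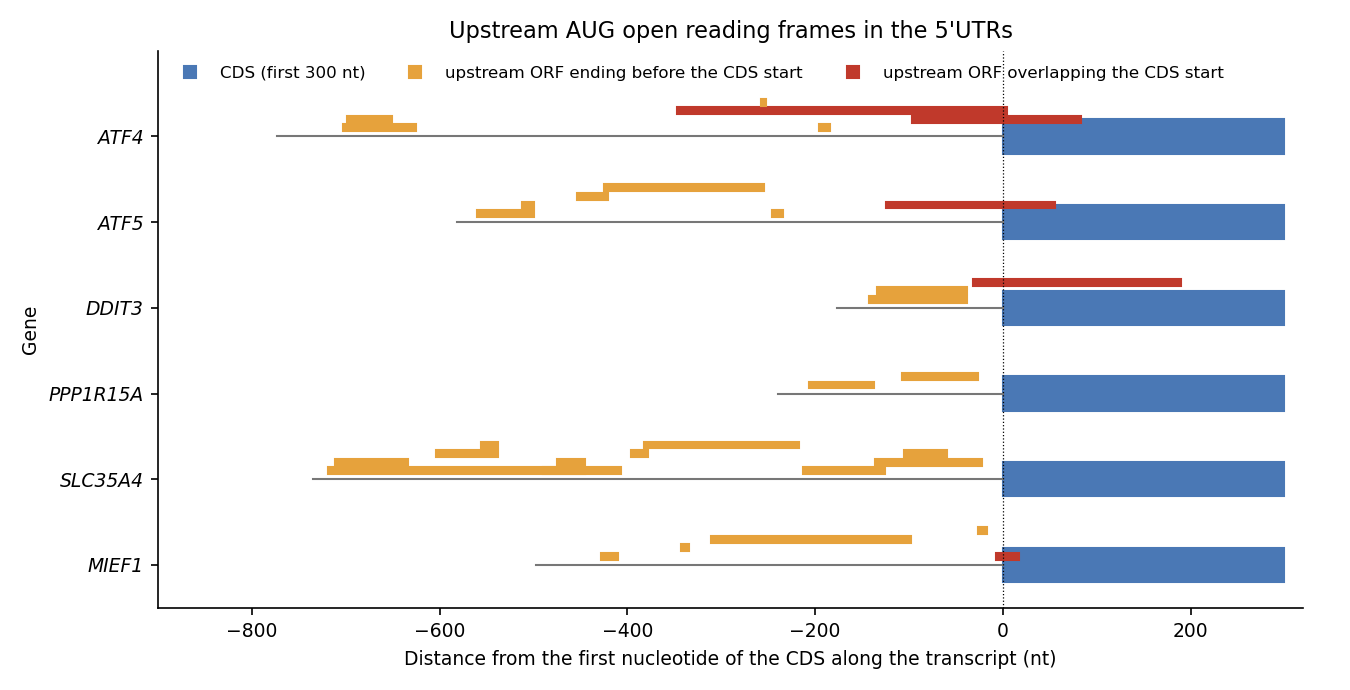
Each row is a transcript, with the distance from the first nucleotide of the CDS in nt on the horizontal axis, the 5′UTR as a line, the start of the CDS in blue and each frame that opens with AUG as a bar raised above the line. Orange frames end before the CDS and red frames run into it, by 83 and 4 nt in ATF4, 56 nt in ATF5, 190 nt in DDIT3 and 17 nt in MIEF1.

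ATF4 had more RPFs on its 5′UTR than on its CDS in every library. Its 5′UTR held 510, 620 and 828 reads, against 134, 198 and 209 reads on the CDS. The 5′UTR therefore took 79.2%, 75.8% and 79.8% of the reads of both regions, with exact binomial 95% intervals of 75.8 to 82.3%, 72.7 to 78.7% and 77.3 to 82.2%. The interval of G418 A overlaps those of both untreated libraries. Such intervals cover counting error only. Per nucleotide, the 5′UTR was 5.08, 4.18 and 5.28 times as dense as the CDS in these libraries, whereas the median over all transcripts was 0.0760, 0.0982 and 0.0775. These ATF4 values lay above 99.4 to 99.8% of the 7147 to 7753 transcripts with at least 20 CDS reads in a library.

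In both regions ATF4 was higher in G418 A than in either untreated library. In RPM, reads scaled to a common library total, the CDS stood at 22.9, 20.9 and 29.0, so that the untreated pair averaged 21.9 ± 1.41 RPM (SD, n = 2). The 5′UTR stood at 87.1, 65.4 and 114.7 RPM. The log2 change of the CDS was 0.41 ± 0.31 (SE), with an adjusted p of 0.657 by edgeR's quasi-likelihood test with Benjamini-Hochberg adjustment over 8480 transcripts. The ratio of 5′UTR to CDS reads was 3.81, 3.13 and 3.96, a log2 change of 0.20 ± 0.51 by the edgeR interaction of region and treatment (adjusted p = 0.942). Neither difference passed the test, and the ratio of G418 A exceeded that of Untreated A by less than the untreated libraries differed from each other.

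**Figure D2:**
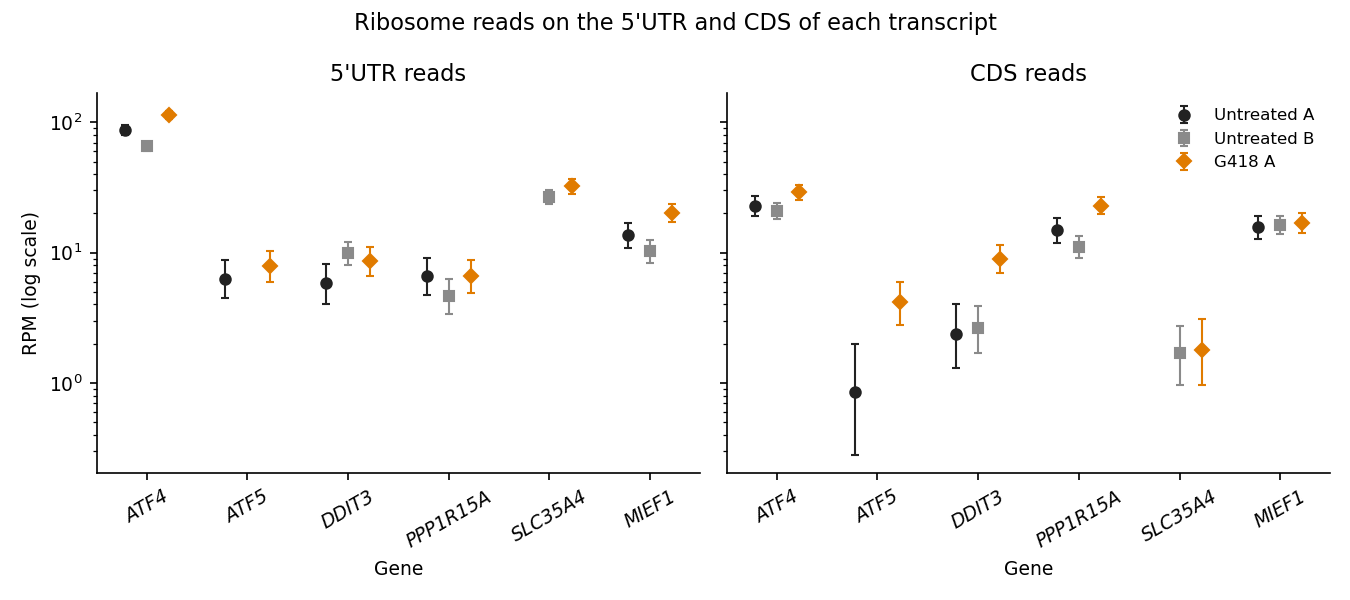
RPFs of each member on the 5′UTR (left) and the CDS (right), in RPM on a log axis, with a point for each library and exact Poisson 95% intervals as bars. The CDS of DDIT3 stands at 9.01 RPM in G418 A against 2.39 and 2.64 RPM in the untreated libraries, while its 5′UTR at 8.59 RPM lies between the untreated values; a missing point means that the library did not list the gene.

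DDIT3, which encodes CHOP, had the largest CDS difference of the 4 members listed in every library. Its CDS held 14, 25 and 65 reads, or 2.39, 2.64 and 9.01 RPM. The test asks for a mean of 20 CDS reads over the 3 libraries. The untreated counts alone fall short of that mean, so DDIT3 was tested only because of its count in G418 A. The Poisson interval of G418 A, 6.95 to 11.5 RPM, did not overlap those of the untreated libraries, which ended at 4.01 and 3.89 RPM. G418 A exceeded Untreated A by a log2 of 1.91 and Untreated B by 1.77, while the untreated libraries differed by 0.14. The edgeR log2 change was 1.83 ± 0.59, with an adjusted p of 0.0671, so DDIT3 missed the threshold of 0.05. Over the edgeR alternatives the adjusted p ranged from 0.0595 to 0.0940, and DESeq2 gave no adjusted value.

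On the 5′UTR of DDIT3 the libraries fell in another order. It held 34, 94 and 62 reads, or 5.80, 9.92 and 8.59 RPM, so G418 A lay between the untreated libraries. The ratio of 5′UTR to CDS reads was 2.43 and 3.76 without drug and 0.954 with it. The 5′UTR share was 70.8% (55.9 to 83.0%), 79.0% (70.6 to 85.9%) and 48.8% (39.9 to 57.8%). The interval of G418 A overlapped that of Untreated A and lay below that of Untreated B. The edgeR log2 change of the ratio was −1.68 ± 0.79 (adjusted p = 0.753).

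ATF5 gave a like pair of values from fewer reads. Its CDS held 5 reads in Untreated A (0.854 RPM) and 30 in G418 A (4.16 RPM), a fold of 4.87 with an exact counting interval of 1.87 to 16.1. Untreated B did not list it. No library listed a CDS density under 1 RPKM, and if ATF5 was left out for that reason, it had at most 7 reads (0.739 RPM) there. On that assumption the CDS was at least 5.63-fold higher in G418 A than in Untreated B. The 5′UTR of ATF5 held 37 reads in Untreated A and 57 in G418 A, or 6.32 and 7.90 RPM. The 5′UTR share was 88.1% (74.4 to 96.0%) in Untreated A and 65.5% (54.6 to 75.4%) in G418 A, and these intervals overlap narrowly. With ATF5 missing from a library, no test was run on it.

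PPP1R15A, whose product GADD34 leads phosphatase to eIF2, had most of its RPFs on the CDS. The CDS held 87, 105 and 166 reads, or 14.9, 11.1 and 23.004 RPM, and the untreated mean was 13.0 ± 2.67 RPM (SD, n = 2). G418 A was the highest of the 3, with a log2 difference of 0.63 from Untreated A and 1.05 from Untreated B, against 0.42 between the untreated libraries. The edgeR log2 change was 0.84 ± 0.37 (adjusted p = 0.265). Its 5′UTR held 39, 44 and 48 reads, or 6.66, 4.64 and 6.65 RPM, with G418 A level with Untreated A. The 5′UTR share was 31.0% (23.02 to 39.8%), 29.5% (22.3 to 37.5%) and 22.4% (17.0 to 28.6%), with all 3 intervals overlapping. The log2 change of the ratio was −0.58 ± 0.66 (edgeR adjusted p = 0.875).

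SLC35A4 had the largest 5′UTR share of the members. Its 5′UTR held 255 reads in Untreated B and 233 in G418 A, against 16 and 13 reads on the CDS. The 5′UTR share was 94.1% (90.6 to 96.6%) without drug and 94.7% (91.1 to 97.2%) with it, and the 5′UTR was 20.8 and 23.4 times as dense as the CDS. No transcript with at least 20 CDS reads had a higher density ratio in either library. SLC35A4 itself fell below that minimum, so it was set against transcripts with more CDS reads than its own. The CDS stood at 1.69 RPM in Untreated B and 1.80 RPM in G418 A, a fold of 1.07 with a counting interval of 0.472 to 2.37. Untreated A did not list the gene. On the same assumption it had at most 5 CDS reads (0.854 RPM) there, and the CDS was at least 2.11-fold higher in G418 A. G418 A would then be close to Untreated B and above Untreated A, and no difference between the groups can be read from these values.

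MIEF1 had the smallest CDS difference of the 4 members listed in every library. The CDS held 92, 154 and 122 reads, or 15.7, 16.2 and 16.9 RPM. The edgeR log2 change was 0.08 ± 0.38 (adjusted p = 0.964), and its sign turned with other scalings, to −0.015 with TMM factors and −0.024 with DESeq2. Its 5′UTR held 80, 98 and 146 reads, or 13.7, 10.3 and 20.2 RPM, and was highest in G418 A. The 5′UTR share was 46.5% (38.9 to 54.3%), 38.9% (32.8 to 45.2%) and 54.5% (48.3 to 60.5%). The interval of G418 A overlapped that of Untreated A and lay above that of Untreated B. The log2 change of the ratio was 0.69 ± 0.61 (edgeR adjusted p = 0.831).

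Set side by side per length, the order of the CDS densities differed between the groups. In Untreated A the CDS density was 22.4 RPKM for ATF4, 11.2 for MIEF1, 7.46 for PPP1R15A, 5.011 for DDIT3 and 1.05 for ATF5. Untreated B gave the same order for the genes it listed, with 20.4, 11.6, 5.56 and 5.53 RPKM for ATF4, MIEF1, PPP1R15A and DDIT3, and 1.79 for SLC35A4. In G418 A, DDIT3 at 18.9 RPKM stood second behind ATF4 at 28.3, followed by MIEF1 at 12.04, PPP1R15A at 11.5, ATF5 at 5.09 and SLC35A4 at 1.91. MIEF1 and PPP1R15A in G418 A, and PPP1R15A and DDIT3 in Untreated B, differed by less than PPP1R15A did between the untreated libraries.

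The 5′UTR densities had ATF4 first in all 3 libraries, at 113.5, 85.3 and 149.6 RPKM. DDIT3 followed at 33.4, 57.0 and 49.4 RPKM and SLC35A4 at 37.3 in Untreated B and 44.7 in G418 A. PPP1R15A stood at 28.5, 19.8 and 28.4, MIEF1 at 27.8, 21.1 and 41.2, and ATF5 at 10.97 in Untreated A and 13.7 in G418 A. The 4 members listed in every library held 0.712%, 0.534% and 0.974% of all listed 5′UTR reads. Of all listed CDS reads they held 0.00852%, 0.00767% and 0.0115%. Over all genes the 5′UTR took 2.37%, 2.48% and 2.23% of 5′UTR and CDS reads.

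**Figure D3:**
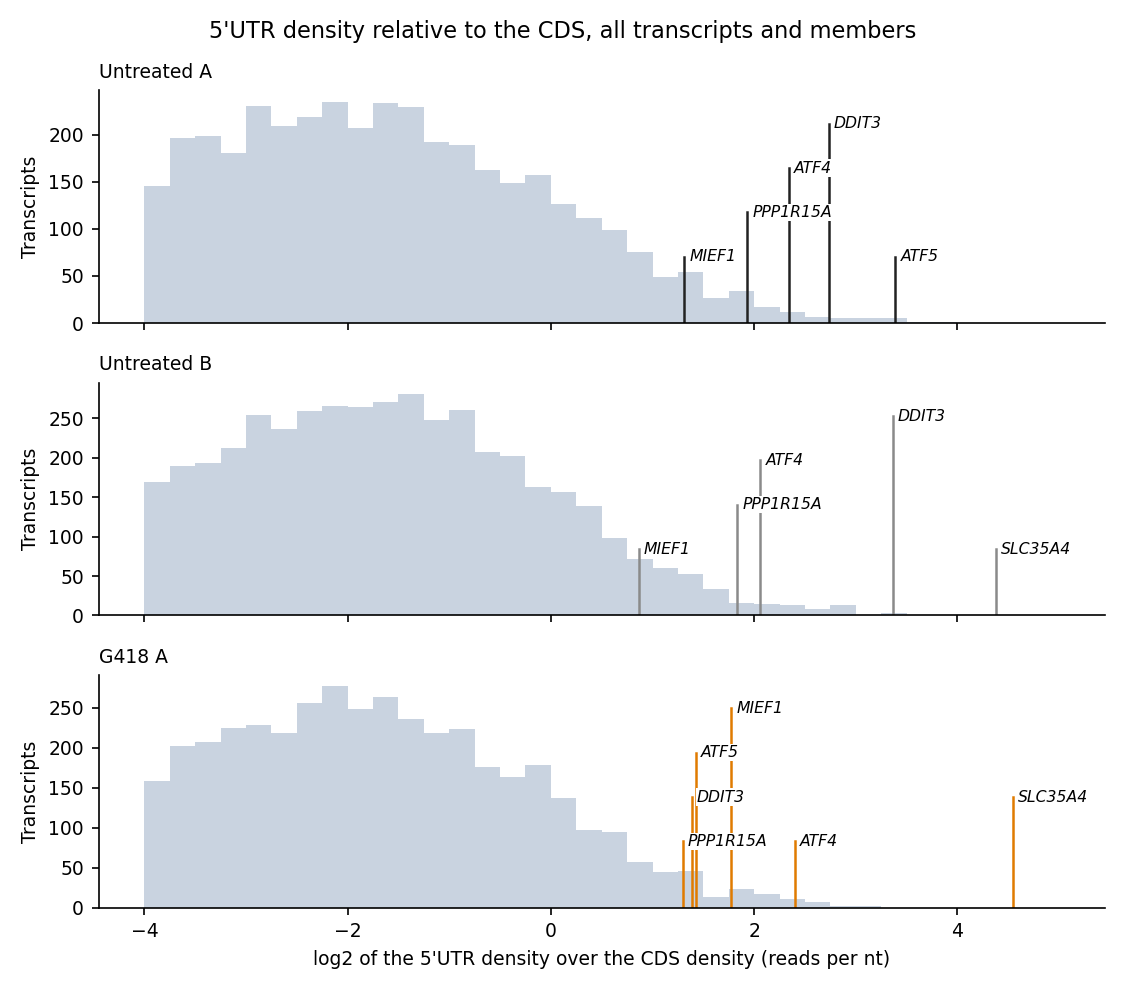
Number of transcripts by the log2 of their 5′UTR density over their CDS density in each library, for transcripts with at least 20 CDS reads, with the members marked by lines whose height carries no meaning. All members listed stand in the right tail, with ATF5 farthest in Untreated A and SLC35A4 farthest in Untreated B and G418 A. ATF5 and DDIT3 in Untreated A, and SLC35A4 wherever listed, had fewer than 20 CDS reads themselves. Not drawn are 2475 to 2533 transcripts a library without a 5′UTR read and 880 to 1089 below the plotted range.

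Across the members the CDS was on the higher side in G418 A, without a call. All 4 members listed in every library had a higher CDS RPM in G418 A than in both untreated libraries, as did 47.6% of the 8480 transcripts tested. For MIEF1 this depends on scaling to the library total, as its log2 change of 0.08 became −0.015 with TMM factors and −0.024 with DESeq2. The median log2 difference from the untreated mean was 0.62 over the 4 members and 0.10 over all transcripts. DDIT3 alone exceeded each untreated library at least 2-fold, which 1.71% of transcripts did. DDIT3 met the minimum of 20 mean CDS reads only through G418 A. By the edgeR test 2.23% of transcripts were called higher and 0.366% lower, and 0 of the 4 members were called (DDIT3 and PPP1R15A had an unadjusted p under 0.05, as did 13.2% of transcripts, and only DDIT3 of them did with DESeq2). TMM scaling changed the calls from 189 higher and 31 lower to 103 and 36, and DESeq2 gave 8 and 13. The threshold of 2-fold over the untreated mean was passed upwards by 3.21% and downwards by 0.637% of transcripts, while from Untreated A to Untreated B 3.22% were at least 2-fold higher and 0.696% lower.

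The ratio of 5′UTR to CDS reads differed in both directions among the members. DDIT3 and PPP1R15A had a lower ratio in G418 A than in both untreated libraries, and ATF4 and MIEF1 a higher one. Of the 4044 transcripts tested, 43.9% had a lower ratio and 24.7% a higher ratio than in both untreated libraries. The median log2 difference was −0.19 over the 4 members and −0.21 over all transcripts. Only DDIT3 of the 4 differed at least 2-fold from the untreated pair, to the lower side, as 23.7% of transcripts did. From Untreated A to Untreated B, 15.3% of ratios were at least 2-fold lower and 22.4% at least 2-fold higher. The edgeR test called 0% of ratios higher and 0% lower, with 242 at an unadjusted p under 0.05, and DESeq2 also called 0, with 188. On simulated counts the ratio test found 0% of changes of log2 1, 19.5% of log2 2 and 67% of log2 3. The lack of calls therefore does not show that a ratio, such as that of DDIT3, was unchanged. For 5′UTR reads alone, ATF4 and MIEF1 had a higher RPM in G418 A than in both untreated libraries, as did 30.9% of transcripts.

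**Figure D4:**
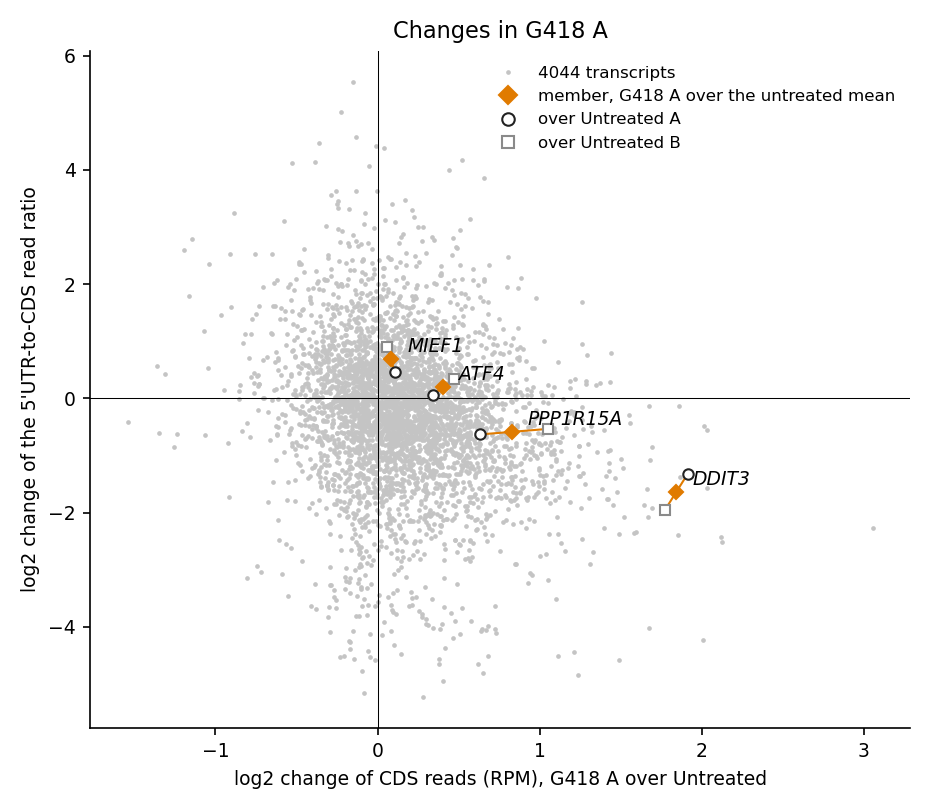
Each grey point is 1 of 4044 transcripts, with the log2 change of CDS RPM in G418 A over the untreated mean on the horizontal axis and the log2 change of the ratio of 5′UTR to CDS reads on the vertical axis. Diamonds mark the 4 members listed in every library and open symbols their change over each untreated library, with DDIT3 at 1.84 on the CDS axis and −1.64 on the ratio axis, at the lower right of the cloud.

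Readthrough, in which a ribosome decodes a stop codon as an amino acid and goes on in the 3′UTR, was measured between the stop codon and the next stop codon in frame. Its density over that of the CDS is the ribosome readthrough score (RRTS). G418 acts on the decoding site of the ribosome and makes decoding less accurate. Over all listed transcripts the pooled RRTS was 1.67%, 1.34% and 21.6%. Among the 6 members listed, 4 end in UAG and 2 in UGA, whereas 22.4% of all listed transcripts end in UAG and 50.3% in UGA. The stop codons and the base after each are shown in capitals, with 12 bases of CDS before and 11 bases of 3′UTR after them. The stop codon, the next base and the sequence around them are known to influence how often a stop codon is read through.
ATF4: aaaagggtccccTAGTtgaggatagtc
ATF5: acccgtagctgcTAGAagggcaggggt
SLC35A4: tatggcagccgcTAGTccctgacaact
MIEF1: gccctgcttttcTAGGatgtggcctta
DDIT3: ctgcaccaagcaTGAAcaattgggagc
PPP1R15A: gggaggcgtggcTGAGaccaactggtt
None has C after the stop codon, the base known to favour readthrough. The share of all listed transcripts with C there was not counted, so nothing is read from its absence in these few genes.

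Few reads lay past these stop codons, with or without the drug. ATF4 had 1, 0 and 0 reads, and DDIT3 had 2, 0 and 1. PPP1R15A had 0, 0 and 1, and ATF5, SLC35A4 and MIEF1 had 0 wherever they were listed. In G418 A the 6 members together had 2 reads, where 48.6 would stand at the density of their CDSs. That is a pooled RRTS of 4.12% with an exact Poisson 95% interval of 0.499 to 14.9%. In Untreated A the 5 members listed had 3 reads, a pooled RRTS of 17.8% (3.67 to 51.98%), and in Untreated B they had 0, which gives 0% (0 to 12.6%). These intervals overlap, so no difference between the libraries can be read from the members. At the pooled RRTS of all transcripts with the same stop codon, 30.1% for UGA and 19.3% for UAG in G418 A, the members would have had 12.4 reads there. By the same measure they would have had 0.273 reads in Untreated A, where 3 were found, and 0.387 in Untreated B, where 0 were found. An RRTS above 0 was found for 17.4%, 16.1% and 60.5% of listed transcripts, and for 2 of the 6 members in G418 A.

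DDIT3 carried most of the weight of that sum, with 26.6 reads expected at its CDS density and 7.99 at the pooled rate of UGA. Of its 477 counted CDS nt, 172 are shared with the 73-codon uORF, which is in another frame. Any ribosomes on that uORF raise both expected numbers, and their share was not measured. Its readthrough region of 195 counted nt ended at a UAA, and its 1 read in G418 A gave an RRTS of 3.76% (0.0953 to 21.0%). Transcripts ending in UGAA, as DDIT3 does, had a pooled RRTS of 32.98%. Among the 503 transcripts with UGA and 20 to 35 readthrough reads expected at the CDS density, 17.1% likewise had at most 1 read. For ATF4 the CDS density gave 8.58 reads in G418 A, so 0 reads allow an RRTS of up to 35.0%, and a readthrough like that of other UAG transcripts was not detectable at this depth. The corresponding limit was 52.3% for MIEF1, 75.6% for ATF5 and 122.8% for SLC35A4. PPP1R15A has a region of only 15 counted nt, in which 1.25 reads were expected at the CDS density and 1 was found. No member reached the 10 readthrough reads asked for before a test, and 8.34% of the 2159 transcripts tested were called higher in G418 A by edgeR (180 transcripts, against 1 with each region scaled to its own total and 1437 with DESeq2).

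**Figure D5:**
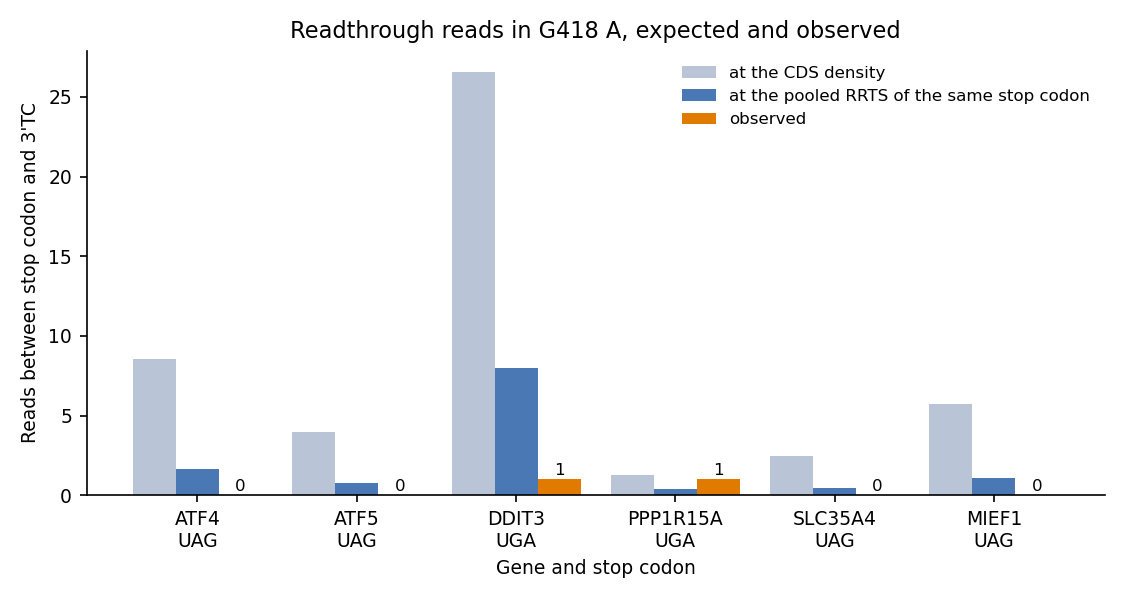
Bars give, for each member in G418 A, the reads expected between the stop codon and the next stop codon in frame (3′TC) at the CDS density (grey), the reads expected at the pooled RRTS of the same stop codon (blue) and the reads observed (orange, with the number above). DDIT3 had 1 read where 26.6 and 7.99 were expected, PPP1R15A had 1, and the other 4 members had 0. The CDS density of DDIT3 includes reads on the part that a uORF overlaps.

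Genes for the factors that act upstream of these mRNAs were mostly not called. Of 15 genes for eIF2 kinases, subunits of eIF2 and eIF2B, and catalytic subunits of protein phosphatase 1, 11 were tested for CDS reads, 1 rose by the edgeR test and 0 fell, against 2.23% of all transcripts called higher and 0.366% lower. PPP1CC, one of the phosphatase catalytic subunits, was the gene called, also with TMM scaling. It rose from 230.8 and 203.6 RPM to 357.4 RPM, an edgeR log2 change of 0.72 ± 0.16. PPP1CA and PPP1CB, the other catalytic subunits of the list, had edgeR log2 changes of 0.31 and 0.30 and were not called. The median log2 difference of the 11 genes was 0.08, against 0.10 over all transcripts. EIF2AK2, the kinase PKR, stood at 130.3, 121.3 and 132.2 RPM, and the eIF2 alpha subunit EIF2S1 at 268.6, 212.3 and 254.3 RPM. For EIF2S1 the value in G418 A lay between the untreated ones.

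Genes that ATF4 and CHOP are known to induce were mostly not called. Of 30 such genes 23 were tested, 2 rose and 0 fell by edgeR (2.23% and 0.366% of all transcripts), and their median log2 difference was 0.20, against 0.10 over all transcripts. HERPUD1, which serves in the degradation of proteins from the endoplasmic reticulum, rose from 29.9 and 22.1 RPM to 76.1 RPM, a log2 change of 1.56 ± 0.25 (adjusted p = 7.29e-07). ERO1A, an oxidase that forms disulfide bonds in the endoplasmic reticulum, rose from 118.3 and 85.6 RPM to 199.97 RPM, a log2 change of 0.98 ± 0.18 (edgeR adjusted p = 3.1e-05). ASNS, the asparagine synthetase that ATF4 is known to induce, stood at 149.0, 131.9 and 149.4 RPM, with G418 A level with Untreated A. TRIB3, a pseudokinase induced by ATF4 and CHOP, stood at 5.63, 7.91 and 10.5 RPM and was not called.

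Other mRNAs with known regulatory uORFs gave 1 call. Of 13 genes 10 were tested, 1 rose and 0 fell by edgeR (2.23% and 0.366% of all transcripts), and their median log2 difference was 0.15, against 0.10 over all transcripts. AMD1, a decarboxylase of polyamine synthesis whose translation a uORF controls, rose on the CDS from 39.8 and 34.6 RPM to 74.7 RPM, a log2 change of 1.01 ± 0.23 (edgeR adjusted p = 0.00283). Its 5′UTR held 33, 164 and 74 reads, and the untreated libraries lay on either side of G418 A. In none of the 3 lists was a ratio of 5′UTR to CDS reads called, among 8, 15 and 8 genes tested. The median log2 change of the ratio in these lists was −0.69, −0.63 and −0.64, against −0.21 over all transcripts.

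The transcripts most like ATF4 were sought by 4 log2 differences, those of CDS and 5′UTR reads in G418 A over each untreated library. Over 4043 other transcripts compared, TIPRL was nearest, at a distance of 0.11 on the log2 scale, followed by JAG1 at 0.13 and KDM2A at 0.17. TIPRL differed in the CDS by 0.36 and 0.55 over Untreated A and Untreated B, where ATF4 differed by 0.34 and 0.47, and in the 5′UTR by 0.39 and 0.88, where ATF4 differed by 0.40 and 0.81. Their 5′UTRs held 23 reads for TIPRL, 51 for JAG1 and 79 for KDM2A over the 3 libraries, against 1958 for ATF4, so their 5′UTR differences rest on far fewer reads.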

How the data were processed

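Ribosome profiling was done on 3 HEK293T libraries (Untreated A and B, G418 A). The submitters' processing notes name CASAVA 1.8, STAR and the hg38 build, and the study's methods name GENCODE 30 as annotation. The authors collapsed duplicates by molecular identifier, kept the primary alignment of reads of 28 to 35 nt and assigned them to the ribosomal A site of 1 transcript per gene, so reads shared with near-identical copies can be misplaced. The authors deposited RPM values per region, RPKM densities, the RRTS as a ratio, and whole-number counts. The deposited CDS lengths leave out 18 nt at the start and 15 nt at the end.

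Every nonzero RPM was a whole multiple of 1 read (100% of values, tolerance 0.002), and reads were recovered by division. The deposited whole-number CDS counts were an alternative, since in Untreated A they were lower for 9080 of 9099 transcripts, by no more than 1 read. They were lower for 283 transcripts in Untreated B and 72 in G418 A. A library lists transcripts from 1 RPKM of CDS density upward. RRTS and its exact Poisson intervals were computed from the recovered reads, and shares have exact (Clopper-Pearson) binomial 95% intervals. For a single member with 0 readthrough reads, the limit given is that of 3 reads. The pooled interval of the members in Untreated B, also with 0 reads, is the two-sided exact one.

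CDS reads were tested with edgeR 4.0.16 (R 4.3.3), quasi-likelihood, two-sided, on transcripts present in every library and averaging 20 or more CDS reads, with depth as library size. The ratio test was the interaction of region and treatment with library as a block, for transcripts with at least 10 5′UTR (or readthrough) reads in all. Log2 ratios outside the fit had 0.5 reads added, and a fold call asks for a log2 of 1. The SE beside an edgeR log2 change is its absolute value divided by the square root of the test's F statistic. Adjusted p-values are Benjamini-Hochberg values over all transcripts, with a threshold of 0.05. With 2 libraries against 1, each transcript has 1 residual degree of freedom, from the untreated pair. The edgeR fit moderated this spread over transcripts, for CDS reads fully (infinite prior degrees of freedom, so all transcripts share 1 trend of the spread) and for the ratio with 2.88 prior degrees of freedom. The p-values rest on that sharing, and the G418 library is assumed to vary like it. The study calls replicates biological, while the labels give only letters. Untreated A and B differed by more than sampling noise (chi-square per degree of freedom 7.94 over 8812 transcripts). The tests were checked on counts simulated at the common spread of CDS reads (coefficient of variation 0.148 beyond counting noise). The CDS test found 1%, 43.5% and 98% of changes of log2 0.5, 1 and 2. The ratio test found 0%, 19.5% and 67% of changes of log2 1, 2 and 3. The spread fitted for the ratio was larger (0.289), so its recovery in these data may be lower. DESeq2 1.42.0, TMM factors, other filters and leaving out each untreated library were alternatives.

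The members and gene lists were chosen with earlier results of these data known. The genes named are all members, list genes past the edgeR threshold, and the 3 transcripts nearest to ATF4. EIF2AK2, EIF2S1, ASNS and TRIB3 were added after their values were seen, for their known place in the pathway. Older symbols (WARS, AARS, SARS, NARS, EPRS) were matched by hand. Upstream frames and stop contexts came from GENCODE 44 transcripts. For DDIT3 (a later transcript version, 3 nt shorter in the 5′UTR) and SLC35A4 (another transcript of the gene) the reference differs slightly from the one counted.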

Additional observations from a re-analysis of the deposited data

How the results depend on the processing

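Of 54 values of the members under alternatives, 52 kept their sign. Only 30 of them have an adjusted p, and 29 of those kept both sign and side of the threshold. The CDS change of MIEF1 reversed to −0.015 with TMM scaling and −0.024 with DESeq2. The 220 transcripts called for CDS reads became 139 with TMM scaling and 21 with DESeq2, and the share of higher calls went from 85.9% to 74.1% and 38.1%. For readthrough, 180 calls became 2 with each region scaled to its own total and 1438 with DESeq2. Transcripts at least 2-fold higher in CDS reads (272) numbered 60 with the stricter minimum of mean CDS reads, and those 2-fold lower (54) numbered 5. Leaving out an untreated library gave 296 (without Untreated A) to 540 (without Untreated B) higher and 34 (without Untreated B) to 97 (without Untreated A) lower. Without a count filter the ratio of 5′UTR to CDS reads was at least 2-fold higher in 1164 transcripts instead of 493 and lower in 1824 instead of 957. In each case the cause was not tested, other than the fewer or further transcripts that a filter lets in. TMM scaling moved the median CDS change of all transcripts from 0.097 to 0.00057, and own-total scaling moved that of the ratio from −0.29 to −0.16. No paired analysis was possible because the groups share only the letter A. Depth limits most the CDS of ATF5, SLC35A4 and DDIT3 and every readthrough count.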
